A study of Homo sapiens with 8 samples.

Results

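The 10 genes described here encode bone morphogenetic protein (BMP) ligands, secreted antagonists of BMP and related ligands, an inhibitory SMAD and the inhibitor of DNA binding (ID) proteins. They are BMP2, BMP4, CHRDL1, FST, GREM1, SMAD6, ID1, ID2, ID3 and ID4. They were taken by symbol from the 26364 genes of the count file, and 9 of the 10 had enough counts to be tested. The genes were proposed with earlier results of these 8 libraries known. Their levels and fold changes are therefore a description, and the number of them that passed a test supports nothing by itself.

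The RNA came from LN229, a human glioblastoma line, in the form of 2 G418-selected clones, with 2 libraries in each of 4 groups. Clone Surv-GFP (D6) carries a plasmid for Survivin with a working nuclear export sequence (NES) fused to eGFP. In untreated cells this fusion was found mainly in the cytoplasm. Clone SurvNESmut-GFP (L2) carries the same fusion with the substitutions L96A and L98A in the NES, found mainly in the nucleus. Each clone was either left untreated or exposed to 50 µM temozolomide (TMZ), an alkylating drug used against glioblastoma, for 48 h. Whether untreated cells received the solvent is not stated. Each construct is represented by 1 clone, so an effect of the NES mutation and a trait of that clone cannot be told apart. The replicates are lettered a and b, and the study describes 2 independent biological replicates measured in technical duplicates, without saying which of these the letters stand for. All errors and tests then describe the spread between letters, which may be technical.

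BMP ligands bind pairs of type I and type II serine/threonine kinase receptors, which phosphorylate SMAD1, SMAD5 and SMAD9. With SMAD4 these enter the nucleus and activate targets such as the ID genes and SMAD6, the latter a feedback inhibitor. Secreted antagonists hold the ligands away from their receptors, and ID proteins dimerize with basic helix-loop-helix (bHLH) transcription factors and keep them off DNA. In glioblastoma the pathway is known for driving stem-like cells toward astrocytic differentiation, and ID1 and ID3 for marking stem-like cells.

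The libraries held 15826923 to 18861603 reads assigned to genes. Levels are given as CPM, read counts brought to a common library total, after scaling by TMM factors of 0.978 to 1.02. BIRC5, which encodes Survivin and is also the transgene, was 1.46 lower (log2) in untreated SurvNESmut-GFP than in untreated Surv-GFP cells. With TMZ it was 2.95 lower in SurvNESmut-GFP. Upon TMZ it rose by 0.81 in Surv-GFP and fell by 0.67 in SurvNESmut-GFP. The level of Survivin RNA thus differed between the clones along with the construct, and the 2 cannot be told apart here. Plasmid-borne and chromosomal copies share these reads, so BIRC5 checks the construct only in part. CDKN1A, a p53 target that encodes p21, was higher after TMZ by 3.52 in Surv-GFP and by 1.96 in SurvNESmut-GFP on the log2 scale. Of the glioma markers, VIM, NES, CD44, SOX2, S100B and OLIG2 were detected in every library, while the astrocyte marker GFAP was below 1 CPM in each. Of the markers of other cell types reported here, 7 were below 1 CPM in every library, with a highest value of 0.867 CPM. PTPRC (leukocytes), RBFOX3 (neurons) and CDH1 (epithelium) had at most 3 counts in any library. CD68, a macrophage marker, and SNAP25, a neuronal one, were detected in every library and moved with TMZ in opposite directions. CD68 rose by 0.59 on the log2 scale in Surv-GFP (adjusted p = 0.00011, edgeR) and by 0.40 in SurvNESmut-GFP (adjusted p = 0.0044, edgeR). SNAP25 fell by 1.01 in Surv-GFP (adjusted p = 4.2e-06, edgeR) and by 0.54 in SurvNESmut-GFP (adjusted p = 0.0027, edgeR). Since these moves partly cancel, the summed level of these 9 markers was 31.2 to 33.0 CPM in untreated Surv-GFP, 28.1 to 28.5 CPM with TMZ, 33.5 to 36.4 CPM in untreated SurvNESmut-GFP and 31.2 to 37.1 CPM with TMZ. The part of these markers in the results was not tested. Each library comes from a cultured LN229 clone. In such bulk RNA, fewer cells that express a gene and less of its RNA per cell cannot be told apart.

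Upon TMZ the ligand BMP2 was higher in both clones, SMAD6, ID2, ID3, ID4 and CHRDL1 were lower in both, and the BMP4 and ID1 levels of the exposures overlapped. FST went opposite ways, being 2.04-fold higher in Surv-GFP and 0.561-fold in SurvNESmut-GFP. In Surv-GFP, 2 of the 9 tested genes were called higher and 5 lower by edgeR's quasi-likelihood F test at a Benjamini-Hochberg adjusted p of 0.05 over all 14201 tested genes. Of all tested genes, 30.1% were called higher and 28.9% lower in this comparison. In SurvNESmut-GFP, 1 of the 9 was called higher and 6 lower, against 18.6% and 19.1% of all tested genes. The difference between the 2 TMZ effects was called for 4 of the 9. Taken as SurvNESmut-GFP minus Surv-GFP, it was positive for CHRDL1 and ID3, whose TMZ effects were less negative in SurvNESmut-GFP, and negative for FST and ID4. Of all genes 16.6% were called positive and 20.2% negative. Between untreated clones, 3 of the 9 were called higher and 5 lower in SurvNESmut-GFP, against 34.7% and 29.4% of all genes. With TMZ these counts were again 3 and 5, against 34.5% and 34.7%. The median log2 fold change of the 9 genes upon TMZ was -0.43 for Surv-GFP and -0.37 for SurvNESmut-GFP, beside 0.00 over all tested genes in each.

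**Figure D1:**
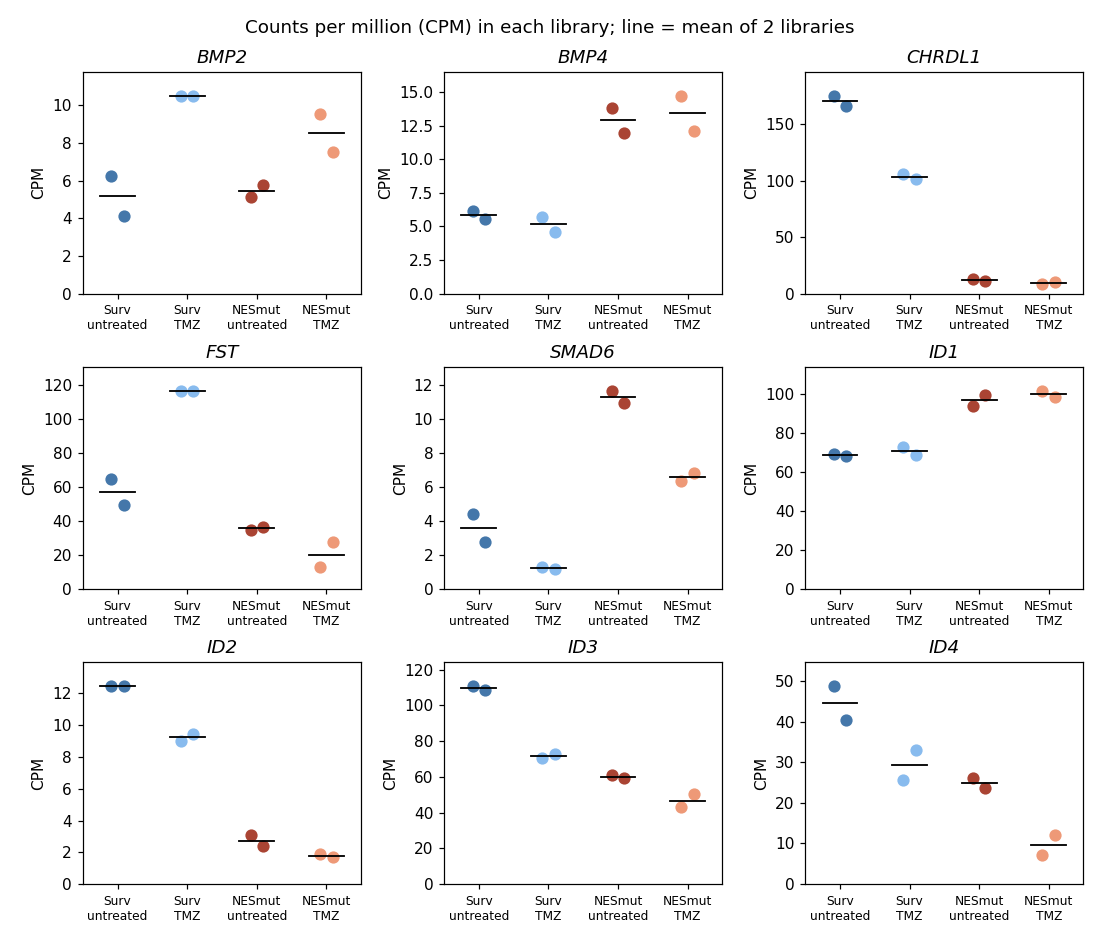
Level in CPM (vertical axes, starting at 0) of the 9 tested genes in each of the 8 libraries, grouped by clone and exposure, with a line at the mean of the 2 libraries. ID1 stays between 67.9 and 73.0 CPM in the 4 Surv-GFP libraries and between 94.0 and 102 CPM in the 4 SurvNESmut-GFP libraries, whereas ID2, ID3 and ID4 are lower with TMZ in each clone.

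Of the ligands, BMP2, which signals through BMPR1A and BMPR1B, was present at 6.23 and 4.14 CPM in untreated Surv-GFP and at 10.5 CPM in both libraries with TMZ. In SurvNESmut-GFP it was 5.15 and 5.78 CPM untreated and 9.53 and 7.50 CPM with TMZ. All 4 TMZ libraries lay above all 4 untreated ones, whichever the clone. The log2 fold change upon TMZ was 1.01 (standard error, SE, 0.17) in Surv-GFP and 0.64 (SE 0.18) in SurvNESmut-GFP. The latter call was lost without untreated SurvNESmut-GFP replicate a (0.56) or without TMZ-exposed replicate a (0.46). Between the clones BMP2 overlapped without TMZ. With TMZ both SurvNESmut-GFP libraries were lower, by 0.30 (SE 0.16) on the log2 scale, which was not called except without TMZ-exposed SurvNESmut-GFP replicate a (-0.52).

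BMP4, the ligand used experimentally to differentiate glioblastoma stem-like cells, differed between the clones and overlapped between the exposures. It had 6.18 and 5.52 CPM in untreated and 5.72 and 4.59 CPM in TMZ-exposed Surv-GFP. The SurvNESmut-GFP libraries had 13.8 and 11.9 CPM untreated and 14.7 and 12.1 CPM with TMZ. The 95% interval of the log2 TMZ effect was -0.54 to 0.19 in Surv-GFP and -0.21 to 0.33 in SurvNESmut-GFP. All 4 SurvNESmut-GFP libraries lay above all 4 of Surv-GFP. The clone difference in log2 was 1.14 (SE 0.14) without and 1.38 (SE 0.15) with TMZ. The BMP4 to BMP2 count ratio was 0.991 and 1.33 in untreated Surv-GFP, 0.546 and 0.437 with TMZ, 2.68 and 2.07 in untreated SurvNESmut-GFP and 1.55 and 1.61 with TMZ. This ratio compares samples, not the abundance of one gene with the other, since the transcripts differ in length.

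Among the antagonists, CHRDL1, a chordin-like protein that binds BMPs, had the largest clone difference of the 9. Untreated Surv-GFP had 176 and 166 CPM and untreated SurvNESmut-GFP 12.9 and 11.2 CPM, a log2 difference of -3.83 (SE 0.07). With TMZ it had 106 and 102 CPM in Surv-GFP and 9.0 and 10.5 CPM in SurvNESmut-GFP, where the clone difference was -3.42 (SE 0.08). Within each clone both TMZ libraries were below both untreated ones. The TMZ effect was -0.72 (SE 0.06) in Surv-GFP and -0.31 (SE 0.11) in SurvNESmut-GFP. The second call was lost without SurvNESmut-GFP untreated replicate a (-0.21) or TMZ replicate a (-0.20), with library size alone as the scaling (-0.27) and with only the 4 libraries of that clone (-0.31). The difference between these effects, 0.41 (SE 0.12), was called, but not without Surv-GFP untreated replicate a (0.37), SurvNESmut-GFP untreated replicate b (0.31) or SurvNESmut-GFP TMZ replicate b (0.30).

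FST encodes follistatin, which neutralizes activins and, less tightly, several BMPs. It rose from 64.7 and 49.2 CPM to 116.2 and 116.5 CPM upon TMZ in Surv-GFP, a log2 change of 1.03 (SE 0.15). In SurvNESmut-GFP it went from 34.5 and 36.6 CPM to 12.9 and 27.4 CPM, a change of -0.83 (SE 0.20). The groups did not overlap in either clone, but the 2 TMZ-exposed SurvNESmut-GFP libraries stood further apart in ratio than any other pair of replicates did for FST. Without replicate a of that group the change was -0.37, without replicate b it was -1.46, and both were called. The call was lost with DESeq2 and with a robust prior (-0.83 each). The difference between the TMZ effects was -1.86 (SE 0.25), and it stayed between -2.50 and -1.41 when each library was left out in turn. FST was lower in SurvNESmut-GFP than in Surv-GFP by 0.68 (SE 0.17) on the log2 scale without TMZ and by 2.54 (SE 0.18) with TMZ. The former was -0.47 and not called without untreated Surv-GFP replicate a, and it was also lost with DESeq2 (-0.71) and a robust prior (-0.68).

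INHBA, which encodes the subunit of activin A, the main follistatin ligand, moved along with FST in Surv-GFP and against it in SurvNESmut-GFP. It rose upon TMZ by 2.67 (SE 0.07, adjusted p = 8.3e-15, edgeR) in Surv-GFP and by 1.41 (SE 0.07, adjusted p = 5.0e-10) in SurvNESmut-GFP on the log2 scale. The FST to INHBA count ratio was 1.48 and 1.21 in untreated Surv-GFP and 1.30 and 1.24 in untreated SurvNESmut-GFP. With TMZ it was 0.460 and 0.411 in Surv-GFP and 0.172 and 0.372 in SurvNESmut-GFP. The untreated ratios of the clones overlapped, and every TMZ ratio lay below every untreated one.

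GREM1, encoding the antagonist gremlin, was near absent, with 1 count in untreated SurvNESmut-GFP replicate b and 0 in the other 7 libraries. A count of 0 allows up to 3 counts, or 0.160 to 0.189 CPM at the depth of these libraries. Its exons overlap the antisense gene AC090877.2 in GENCODE 29, and the sources do not say whether counting used the strand.

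SMAD6, which blocks BMP type I receptors and competes for SMAD4, was the least abundant of the tested genes in Surv-GFP. It had 4.39 and 2.76 CPM untreated and 1.28 and 1.15 CPM with TMZ, from 81, 50, 24 and 20 counts. SurvNESmut-GFP had 11.7 and 10.9 CPM untreated and 6.37 and 6.81 CPM with TMZ. All 4 SurvNESmut-GFP libraries exceeded all 4 of Surv-GFP, and within each clone the TMZ libraries lay below the untreated ones. The log2 effect of TMZ was -1.55 (SE 0.26) in Surv-GFP and -0.78 (SE 0.15) in SurvNESmut-GFP. The clone difference was 1.66 (SE 0.17) without and 2.43 (SE 0.24) with TMZ. The difference between the TMZ effects, 0.77 (SE 0.31), was not called. It was called without untreated Surv-GFP replicate b (1.06), with library size alone (0.83), with no filter on low counts (0.79) and with a filter of 1 CPM in 2 libraries (0.82). Leaving out the other untreated Surv-GFP replicate gave 0.39.

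The promoters of these genes were read from RefSeq (GRCh38.p14) for what the expression rule did not use. Of the 10 genes, 9 matched, and BMP2 had no entry. In the 250 bases upstream of each listed start, both strands were searched for 4 motifs. These were GGCGCC, part of a GC-rich element bound by SMAD1 and SMAD5, GTCTAGAC, the palindromic SMAD-binding element, TATAAA, the TATA box, and CCAAT. GTCTAGAC was found in 0.182% of 35116 RefSeq promoters, GGCGCC in 16.4%, TATAAA in 10.7% and CCAAT in 32.0%. SMAD6 was the one gene of the 9 with GTCTAGAC, 12 to 5 bases before its start. ID1 and ID4 both held TATAAA close to the start, on both strands with overlap in ID1. The last 100 bases before the start are shown for these 3 genes, because they carry those matches, with all motif matches in capitals.
SMAD6, chr15:66702136-66702235, plus strand: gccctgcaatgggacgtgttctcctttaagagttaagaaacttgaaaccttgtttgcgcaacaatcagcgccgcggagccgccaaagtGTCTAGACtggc
ID1, chr20:31605189-31605288, plus strand: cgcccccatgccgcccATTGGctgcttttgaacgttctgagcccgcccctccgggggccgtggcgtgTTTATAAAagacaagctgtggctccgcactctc
ID4, chr6:19837270-19837369, plus strand: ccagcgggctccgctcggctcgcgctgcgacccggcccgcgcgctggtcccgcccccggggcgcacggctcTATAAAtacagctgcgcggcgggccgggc

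The capitals mark GTCTAGAC in SMAD6. In ID1 they mark a minus-strand CCAAT and, closer to the start, the 2 overlapping matches to the TATA box. In ID4 they mark the TATA box. ID2 had 3 CCAAT matches and no TATAAA, and ID3 and CHRDL1 had a match to none of the 4 motifs. Their upstream windows are not printed. Within the windows searched, GGCGCC was found upstream of the first listed start of BMP4, at 2 places in GREM1 and in no ID gene. Sequence further upstream was not searched, so the lack of a match holds for these windows only. The G and C content of the 12 windows of the 9 genes lay between 56.0% and 78.8%, beside a median of 58.0% over all promoters. A match is a description of letters and not a measured binding site.

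Of the ID genes, ID1 encodes an ID protein tied to self-renewal in glioma. Its promoter is among those printed beside SMAD6. The exposures overlapped, with 69.0 and 67.9 CPM untreated and 73.0 and 68.6 CPM with TMZ in Surv-GFP. In SurvNESmut-GFP it had 94.0 and 99.6 CPM untreated and 102 and 98.4 CPM with TMZ. The log2 effect of TMZ was 0.05 (SE 0.06, 95% interval -0.07 to 0.17) in Surv-GFP and 0.05 (SE 0.05, interval -0.06 to 0.16) in SurvNESmut-GFP. The clones did not overlap in either condition, and the difference was 0.50 (SE 0.05) on the log2 scale both without and with TMZ.

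ID2, whose protein also binds the retinoblastoma protein, was the least abundant ID gene. It had 12.5 CPM in both untreated Surv-GFP libraries and 9.04 and 9.47 CPM with TMZ. In SurvNESmut-GFP it had 3.09 and 2.39 CPM untreated and 1.87 and 1.70 CPM with TMZ, from 57, 43, 32 and 27 counts. Neither the clones nor the exposures overlapped. The clone difference was -2.18 (SE 0.15) without and -2.37 (SE 0.18) with TMZ. The TMZ effect was -0.43 (SE 0.12) in Surv-GFP, lost with DESeq2 (-0.45), and -0.61 (SE 0.22) in SurvNESmut-GFP. The second effect was called in 3 of the 8 fits that left out 1 library. It was lost without Surv-GFP untreated replicate a or b (-0.62 each), SurvNESmut-GFP untreated replicate a (-0.42), or SurvNESmut-GFP TMZ replicate a (-0.69) or b (-0.55). It was also lost with library size alone (-0.58), with only the 4 libraries of that clone (-0.62) and with DESeq2 (-0.62). Exons of ID2 overlap those of ID2-AS1 on the opposite strand in GENCODE 29, so reads of the pair may not be separated here.

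ID3, often expressed with ID1, had 111 and 109 CPM in untreated and 70.4 and 72.7 CPM in TMZ-exposed Surv-GFP, and SurvNESmut-GFP had 60.8 and 59.4 CPM untreated and 42.9 and 50.4 CPM with TMZ. Every TMZ library was below every untreated library of its clone, and every SurvNESmut-GFP library below every Surv-GFP one of the same exposure. The TMZ effect was -0.62 (SE 0.06) in Surv-GFP and -0.37 (SE 0.07) in SurvNESmut-GFP. The clone difference was -0.87 (SE 0.06) without and -0.62 (SE 0.07) with TMZ. The difference of 0.25 (SE 0.09) between the TMZ effects was called in 2 of the 8 fits that left out a library. The call was lost without Surv-GFP untreated replicate a (0.23) or b (0.26), Surv-GFP TMZ replicate a (0.23), SurvNESmut-GFP untreated replicate a (0.26) or b (0.23), or SurvNESmut-GFP TMZ replicate b (0.13), and with DESeq2 (0.27).

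ID4, which in neural tissue restrains oligodendrocyte differentiation, had 48.8 and 40.3 CPM in untreated and 25.7 and 33.1 CPM in TMZ-exposed Surv-GFP. In SurvNESmut-GFP it had 26.2 and 23.7 CPM untreated and 7.19 and 12.1 CPM with TMZ. The groups of each clone did not overlap, and the TMZ-exposed SurvNESmut-GFP libraries were the lowest of all 8. Upon TMZ it had a log2 change of -0.60 (SE 0.14) in Surv-GFP, a call lost with DESeq2 (-0.62) and a robust prior (-0.60), and of -1.38 (SE 0.18) in SurvNESmut-GFP. The clone difference was -0.84 (SE 0.14) without and -1.61 (SE 0.17) with TMZ. The difference of -0.78 (SE 0.23) between the effects was called, but not without Surv-GFP untreated replicate b (-0.65), Surv-GFP TMZ replicate b (-0.56), SurvNESmut-GFP untreated replicate a (-0.70) or SurvNESmut-GFP TMZ replicate a (-0.44). Without SurvNESmut-GFP TMZ replicate b it was -1.19 and called, and it was lost with DESeq2 (-0.75) and a robust prior (-0.78).

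For the other genes the difference between the TMZ effects was not called, with 95% intervals of -0.89 to 0.15 for BMP2, -0.21 to 0.69 for BMP4, -0.16 to 0.16 for ID1 and -0.72 to 0.35 for ID2 on the log2 scale.

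**Figure D2:**
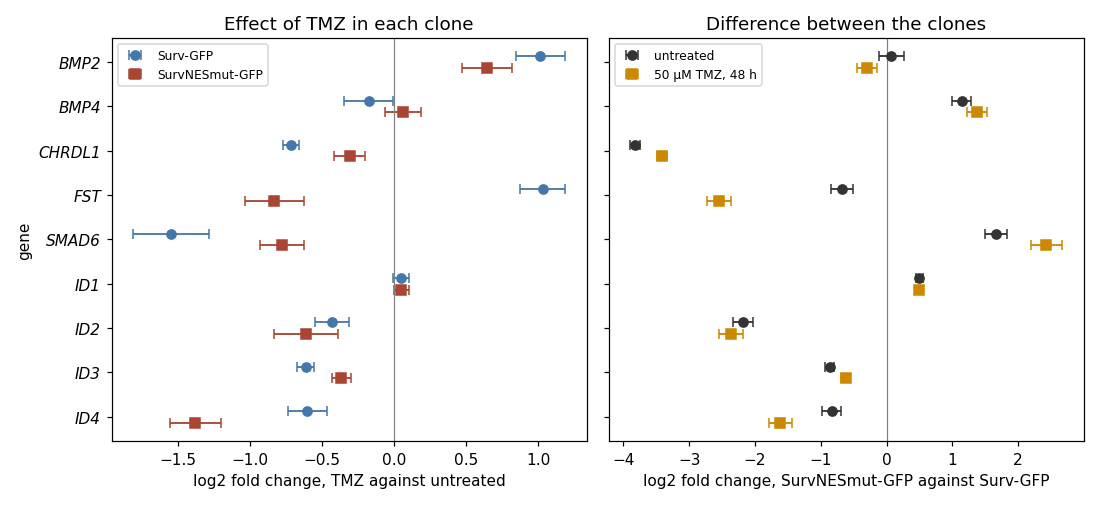
Log2 fold change (horizontal axes) of the 9 tested genes upon TMZ in each clone (left) and between the clones without and with TMZ (right), with bars of 1 standard error from edgeR. FST lies at 1.03 in Surv-GFP and at -0.83 in SurvNESmut-GFP, ID1 at 0.05 in both, and CHRDL1 at -3.83 and -3.42 between the clones.

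The make-up of the ID counts shifted toward ID1 upon TMZ and in SurvNESmut-GFP. Summed over the 4 ID genes, the level was 241 and 229 CPM in untreated Surv-GFP and 178 and 184 CPM with TMZ. In SurvNESmut-GFP it was 184 and 185 CPM untreated and 154 and 163 CPM with TMZ. ID1 made up 28.6% and 29.6% of the ID counts in untreated Surv-GFP and 41.0% and 37.3% with TMZ. It made up 51.1% and 53.8% in untreated SurvNESmut-GFP and 66.2% and 60.5% with TMZ. ID3 went from 46.0% and 47.3% to 39.5% in both libraries in Surv-GFP, and from 33.0% and 32.1% to 27.9% and 31.0% in SurvNESmut-GFP. ID4 made up 20.2% and 17.6%, then 14.4% and 18% in Surv-GFP, and 14.3% and 12.8%, then 4.68% and 7.44% in SurvNESmut-GFP. The shares of ID4 overlapped between exposures in Surv-GFP and did not in SurvNESmut-GFP. ID2 made up 5.17% and 5.44% untreated and 5.07% and 5.15% with TMZ in Surv-GFP, and 1.68% and 1.29% untreated and 1.22% and 1.05% with TMZ in SurvNESmut-GFP. Its shares did not overlap between exposures in either clone.

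**Figure D3:**
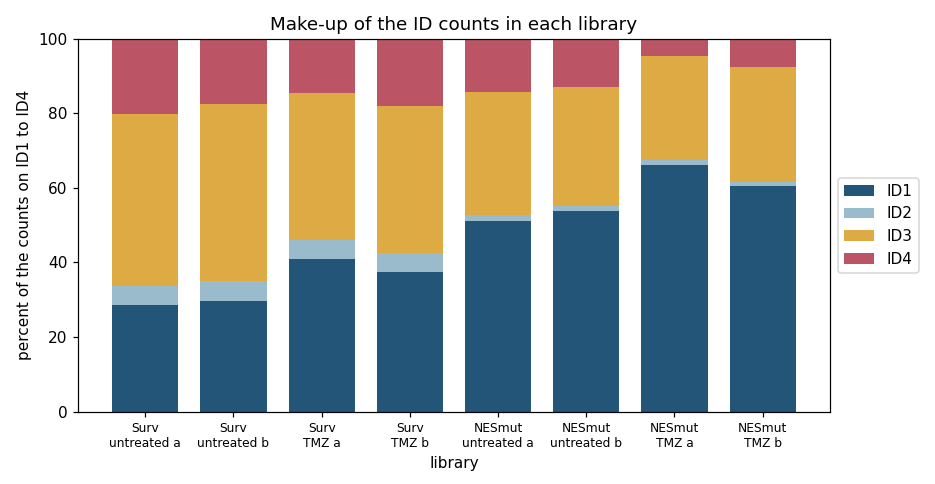
Percent of the counts on ID1 to ID4 (vertical axis, 0 to 100) taken by each ID gene in each of the 8 libraries. The ID1 share lies between 28.6% and 29.6% in untreated Surv-GFP and between 60.5% and 66.2% in TMZ-exposed SurvNESmut-GFP.

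Levels of different genes can be set side by side per kilobase of the longest GENCODE 29 transcript of each. On this scale, in CPM per kb as mean ± SD of 2 libraries, ID3 (87.7 ± 1.28), ID1 (55.5 ± 0.631) and CHRDL1 (44.3 ± 1.71) led in untreated Surv-GFP. FST (22.4 ± 4.31) and ID4 (19 ± 2.56) followed, with overlapping ranges of mean ± SD. Such ranges leave out that the genes share libraries, and genes were not compared library by library here. ID2 (6.11 ± 0.00317), BMP4 (3.05 ± 0.243), BMP2 (1.44 ± 0.411) and SMAD6 (0.932 ± 0.301) came last, and the last pair differed by less than the sum of their SDs. In untreated SurvNESmut-GFP the order was ID1 (78.5 ± 3.18), ID3 (48.0 ± 0.785), FST (14 ± 0.593), ID4 (10.6 ± 0.777) and BMP4 (6.72 ± 0.694). CHRDL1 (3.12 ± 0.298) and SMAD6 (2.95 ± 0.131) were next, with overlapping ranges. BMP2 (1.52 ± 0.123) and ID2 (1.34 ± 0.243) came last, and their ranges overlapped too. With TMZ, ID1 (57.4 ± 2.49) and ID3 (57.2 ± 1.30) were level in Surv-GFP, whereas ID1 (81.1 ± 1.86) stayed above ID3 (37.3 ± 4.22) in SurvNESmut-GFP. FST, at 45.8 ± 0.0717 CPM per kb, came next in TMZ-exposed Surv-GFP. In TMZ-exposed SurvNESmut-GFP it was at 7.94 ± 4.06, a range that overlapped those of BMP4 (7.0 ± 0.969) and ID4 (4.12 ± 1.48).

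The rest of the pathway was described with 8 lists of 97 symbols, of which 96 were in the file and 63 were tested. Upon TMZ, 19 of the 63 were higher and 26 lower in Surv-GFP, against 30.1% and 28.9% of all tested genes. In SurvNESmut-GFP 15 were higher and 22 lower, against 18.6% and 19.1%. Their median log2 fold change was -0.03 and -0.13, beside 0.00 over all genes in each clone. Between untreated clones 26 were higher and 26 lower in SurvNESmut-GFP, against 34.7% and 29.4% of all genes, and with TMZ 25 and 25, against 34.5% and 34.7%. These shares of all genes also stand beside the counts of single lists below, which were not tested against them.

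Of the 12 other BMP ligands 3 were tested. BMP6 rose upon TMZ by 1.29 (SE 0.15, adjusted p = 1.9e-06, edgeR) in Surv-GFP, alongside BMP2. In SurvNESmut-GFP BMP6 fell by 0.68 (SE 0.18, adjusted p = 0.0069, edgeR), unlike BMP2, and this call was lost without untreated (-0.56) or TMZ-exposed (-0.57) SurvNESmut-GFP replicate a. BMP3 had 1 count in the 4 Surv-GFP libraries and 28 to 43 in each SurvNESmut-GFP library. Of 17 other antagonists and ligand-binding proteins 7 were tested, 1 of them higher and 3 lower upon TMZ in Surv-GFP and 3 higher and 2 lower in SurvNESmut-GFP. FSTL3, a follistatin relative, was higher in untreated SurvNESmut-GFP by 2.75 (SE 0.09, adjusted p = 1.2e-13, edgeR) and CRIM1, a membrane protein that binds BMPs, by 1.71 (SE 0.06, adjusted p = 4.7e-13), opposite to FST and CHRDL1. Without TMZ, 4 of the 7 were called higher and 3 lower there, against 34.7% and 29.4% of all genes. The lower ones were TWSG1 (-0.64), FSTL1 (-0.28) and BMPER (-2.10, few reads), the same way as FST and CHRDL1.

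Among receptors and co-receptors 11 of 13 genes in the file were tested. In Surv-GFP 2 were higher and 5 lower upon TMZ, and in SurvNESmut-GFP 2 were higher and 4 lower. BAMBI, a pseudoreceptor and BMP target, fell in both clones as SMAD6 did, by 1.32 (SE 0.09, adjusted p = 4.4e-09, edgeR) and by 1.36 (SE 0.10, adjusted p = 1.7e-08). The co-receptors RGMA (-1.83 and -1.18) and TGFBR3 (-1.35 and -0.68) were lower in both clones too, the highest adjusted p from edgeR being 2.0e-05. ACVR1, a type I receptor, was higher by 0.64 in Surv-GFP (adjusted p = 9.7e-08, edgeR). In SurvNESmut-GFP its log2 change was -0.15 (SE 0.06), not called. The difference between these 2 effects was -0.79 (adjusted p = 1.9e-06, edgeR).

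Of 19 SMADs and SMAD regulators 17 were tested, 7 higher and 7 lower upon TMZ in Surv-GFP and 4 higher and 6 lower in SurvNESmut-GFP. SMAD7, the other inhibitory SMAD, was higher in SurvNESmut-GFP like SMAD6, by 1.22 without (adjusted p = 4.9e-10, edgeR) and 1.34 with TMZ (adjusted p = 9.7e-11). Upon TMZ its log2 change was 0.11 (SE 0.08), not called, in Surv-GFP and 0.24 (SE 0.07, adjusted p = 0.011, edgeR) in SurvNESmut-GFP. The latter call was lost without either untreated replicate of that clone (0.23 each) or its TMZ replicate b (0.18). SMAD1, a BMP-activated SMAD, fell by 0.47 in Surv-GFP (adjusted p = 0.00021, edgeR) and was -0.15 (SE 0.10), not called, in SurvNESmut-GFP. SKIL, a SMAD corepressor, rose by 0.48 (adjusted p = 1.2e-05, edgeR) in Surv-GFP and fell by 0.55 (adjusted p = 1.2e-06, edgeR) in SurvNESmut-GFP.

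Of 10 other BMP target genes 8 were tested, with 2 higher and 3 lower in Surv-GFP and 1 higher and 2 lower in SurvNESmut-GFP. ATOH8 was lower, as ID2, ID3 and ID4 were, with log2 changes of -2.47 (SE 0.09, adjusted p = 1.5e-12, edgeR) and -1.71 (SE 0.11, adjusted p = 5.9e-09). DLX2 rose by 1.62 (SE 0.11, adjusted p = 3.9e-09, edgeR) in Surv-GFP. MSX2 had 0 counts in the 4 Surv-GFP libraries, which allows up to 3 counts in each, and 31 to 35 in each SurvNESmut-GFP library. Of 12 bHLH factors that ID proteins bind or oppose, 10 were tested, with 1 higher and 7 lower in Surv-GFP and 2 higher and 3 lower in SurvNESmut-GFP. Over all tested genes, 30.1% were higher and 28.9% lower in Surv-GFP, and 18.6% and 19.1% in SurvNESmut-GFP. TCF4, an E protein and direct partner of ID proteins, fell in both clones, by 0.79 (adjusted p = 1.5e-08, edgeR) and by 0.58 (adjusted p = 5.2e-06). Of 7 proteases that process ligands or antagonists 4 were tested, with 3 higher in Surv-GFP and 1 higher and 2 lower in SurvNESmut-GFP. FURIN, which cleaves BMP precursors, rose by 0.28 in Surv-GFP (adjusted p = 0.00036, edgeR) and fell by 0.36 in SurvNESmut-GFP (adjusted p = 5.7e-05, edgeR). Of 6 activin-type ligands bound by follistatin 3 were tested, with 2 higher and 1 lower upon TMZ in each clone. INHBA is given with FST. INHBE was higher by 4.65 (SE 0.83) in Surv-GFP and by 3.34 (SE 0.50) in SurvNESmut-GFP (highest adjusted p = 0.00014, edgeR). These sizes rest on few reads, with at most 3 counts in any untreated library and at most 33 in any library. GDF11 fell by 1.0 and by 0.56 (highest adjusted p = 4.9e-05, edgeR).

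**Figure D4:**
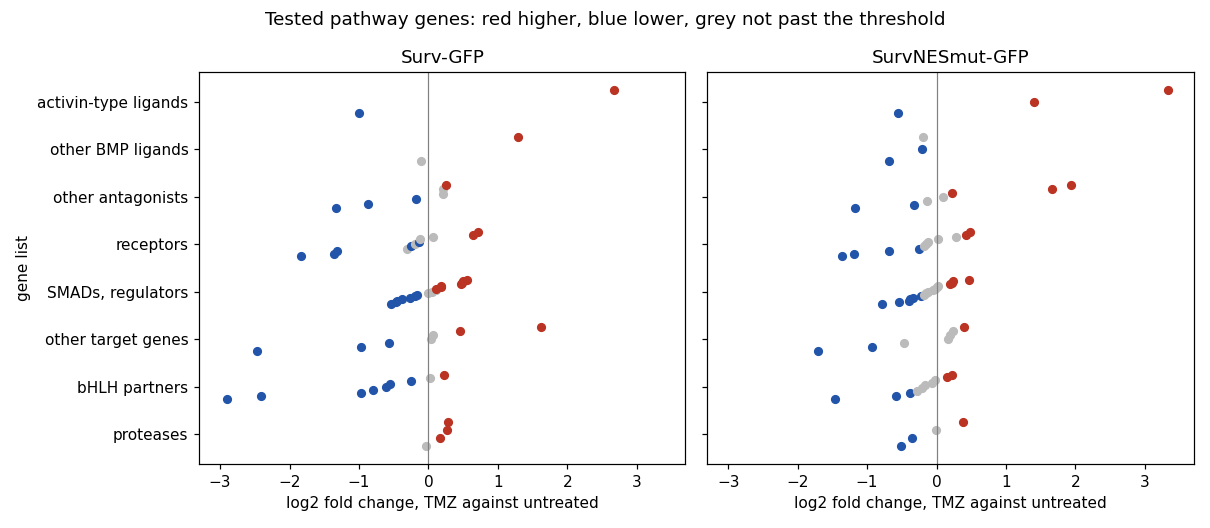
Log2 fold change upon TMZ (horizontal axes) of the tested genes of the 8 pathway lists (rows) in Surv-GFP (left) and SurvNESmut-GFP (right), with red for genes called higher, blue for genes called lower and grey for the others. Genes with 3 counts or fewer in a group are not drawn, which leaves 58 and 62 genes. INHBA lies at 2.67 and 1.41 and ATOH8 at -2.47 and -1.71.

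The 8 libraries come from 2 clones, so correlations across them share the clone and are given without a test. On log2 CPM, ID3 and ID4 had a Pearson r of 0.92, ID2 and ID3 of 0.91 and CHRDL1 and ID2 of 0.99. ID1 went against the other ID genes, with r of -0.99 with ID2, -0.87 with ID3 and -0.79 with ID4. BMP4 and ID1 had an r of 0.97 and BMP2 and ID1 of -0.00. The tested genes of at least 1 CPM most like each member over the 8 libraries were SURF2 and TOMM5 for BMP2 (r of 0.995 and 0.988), VAPA and SHC4 for FST (0.994 and 0.985), and TDP1 and MRPL47 for SMAD6 (0.994 and 0.993). For CHRDL1 they were FGGY and STK10 (0.999 and 0.998), and for BMP4 PIGG and B3GALNT1 (0.994 and 0.993). The ID genes were most like AHCTF1 and ALDH3B1 (ID1), RCOR2 and MAML1 (ID2), BCHE and C1orf21 (ID3) and RXRG and ANG (ID4), with r between 0.994 and 0.998. Each named pair was picked for the highest r among all such genes, so high values are partly due to that choice. Shared regulation was not tested.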

How the data were processed

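RNA of 2 LN229 clones, untreated or exposed to TMZ, was measured by RNA-seq in 8 libraries, grouped by their sample labels. The file the authors deposited gives raw, whole-number counts of reads for 26364 gene symbols, plus 2 rows without a gene name. Reads on no feature made up 11.2% to 14.3% and ambiguous reads 1.19% to 1.28% of each library's total, and both were left out. The submitters' processing notes name STAR 2.5.0b, Cufflinks 2.2.1 and edgeR. For the counting program, annotation, genome build and strandedness, nothing was stated. The 5 tables of the authors' own comparisons give log2 fold changes with mean log2 CPM, an F statistic, a p-value and an FDR, and were not used. The study also used edgeR's quasi-likelihood F test. It reports few significant hits for the TMZ effects and their comparison between clones, and loosened its p threshold there. Here 30.1% of tested genes were called higher and 28.9% lower upon TMZ in Surv-GFP. The cause of this disagreement was not tested.

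A single model with 4 group means took in all 8 libraries in edgeR 4.0.16 in R 4.3.3, using TMM scaling, edgeR's low-count filter by group, which left 14201 genes, and the quasi-likelihood F test with the older prior. The common biological coefficient of variation was 4.09%. For the members the tests had 15.9 degrees of freedom. Of these, 4 came from the gene's own residuals and the rest from a prior shared over all genes. The SE and p-values therefore reflect that prior more than the spread of the single gene. P-values were adjusted by Benjamini-Hochberg over all tested genes, with a threshold of 0.05, and the SE is the log2 fold change divided by the square root of F. CPM use TMM-scaled library sizes. Replicates differed by more than counting noise in every group, with a chi-square of 2.20 to 5.74 per gene. Limits for a count of 0 use 3 counts, and these limits cover counting error only. The fits were also run on simulated counts with a single dispersion and few changed genes. That run checked the code and cannot give the error rates in these data, where many genes changed.

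The members and the pathway lists, written from general knowledge, were chosen with earlier results of these data known. All members were named, and of each list and comparison up to 3 genes per direction with the smallest p among those called, any tested ligand, antagonist, receptor or SMAD, BIRC5 and CDKN1A, and the 2 genes most correlated with each member. BMP3 and MSX2 are given as counts because Surv-GFP had few or no reads of them. The values of 1 antagonist and 1 marker gene are not reported here. Alternatives were other scalings, other filters, DESeq2 1.42.0, a robust prior, the edgeR 4 prior, blocking on the replicate letter, a fit to just the 4 libraries of a contrast, and omission of each library in turn.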

Additional observations from a re-analysis of the deposited data

Results flagged for a closer look

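The TMZ effect differed between the clones, by the test of the difference itself, for 4 of the 9 tested members and for 24 of the 63 tested pathway genes, 12 in each direction. Of all tested genes, 16.6% were called with a positive and 20.2% with a negative difference, which is close to the share of the pathway genes. Among the members the difference (SurvNESmut-GFP minus Surv-GFP, log2) was -1.86 for FST and -0.78 for ID4, and 0.41 for CHRDL1 and 0.25 for ID3. These members were chosen with such values known.

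Pathway genes whose TMZ effect was lower in SurvNESmut-GFP were BMP6 (-1.97), DLX2 (-1.42), INHBA (-1.26), SKIL (-1.02), PMEPA1 (-0.91), ACVR1 (-0.79), PCSK5 (-0.78), FURIN (-0.64), PPM1A (-0.36), USP15 (-0.24), SMURF1 (-0.23) and LEMD3 (-0.21). Those whose effect was higher there were BMPER (3.27), NEUROG2 (2.36), OLIG2 (0.96), ATOH8 (0.76), TGFBR3 (0.67), RGMA (0.65), ENG (0.56), FSTL1 (0.55), CTDSPL (0.44), GDF11 (0.44), RUNX2 (0.36) and CTDSP1 (0.28). BMPER and NEUROG2 rest on few reads, with at most 0.921 CPM in any library for BMPER.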

How the results depend on the processing

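Under 17 alternative settings, 699 of 756 values of the members kept their direction and their side of the threshold, 38 were no longer called, 5 were newly called and 14 changed sign. All of the sign changes were of values not called. For ID1 the difference between the TMZ effects was 0.016 with DESeq2's size factors, 0.017 with no low-count filter, 0.016 with DESeq2, 0.055 with library size alone, 0.045 with a filter of 1 CPM in 2 libraries, and -0.045 to 0.045 with a library left out. With a library left out, the difference for ID2 ranged from -0.36 to 0.011 (without SurvNESmut-GFP untreated replicate a). The TMZ effect on BMP4 in SurvNESmut-GFP ranged from -0.090 (without TMZ replicate a) to 0.20. The untreated clone difference of BMP2 ranged from -0.19 (without Surv-GFP untreated replicate b) to 0.40. The cause was not tested.

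With DESeq2, 3 members in place of 5 were called lower upon TMZ in Surv-GFP (ID2 and ID4 were lost). With DESeq2 the difference between the TMZ effects was called higher for 1 and lower for 1, in place of 2 and 2, and with a robust prior lower for 1. When each library was left out in turn, members called higher upon TMZ in SurvNESmut-GFP ranged from 0 to 1, and members whose TMZ effects differed from 0 to 2 in the positive and from 1 to 2 in the negative direction. The call for FST upon TMZ in SurvNESmut-GFP was lost with DESeq2 (-0.83) and the robust prior (-0.83). Pathway genes called higher upon TMZ in SurvNESmut-GFP fell from 15 to 9 without untreated replicate a of that clone. Of 3496 values of called pathway genes, 236 were no longer called and none changed sign.

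Letters did not pair the libraries, with correlations of their deviations between -0.07 and 0.08. With the replicate block the members called upon TMZ were 2 higher and 5 lower in Surv-GFP and 1 higher and 6 lower in SurvNESmut-GFP, as without it. SMAD6 in Surv-GFP rests on 20 to 81 counts a library and ID2 in SurvNESmut-GFP on 27 to 57, which limits their precision.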
